A study of Mus musculus with 25 samples.

Results

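The genes examined here carry dietary fat and cholesterol through the small intestinal enterocyte. They are Fabp1, Fabp2, Npc1l1, Cd36, Scarb1, Dgat1, Dgat2, Mogat2, Acsl5 and Plin2, taken as the rows of the UMI table whose gene name is one of these symbols. All 10 were found among 24089 genes, and all 10 passed the minimum of 3 UMIs in 3 libraries that left 9956 genes for testing. A UMI (unique molecular identifier) tags a single captured mRNA molecule, so each count is a count of molecules rather than of reads. The tissue was jejunum of 2 male C57BL/6 mice about 3 months old, kept on regular chow with no treatment or genetic change. Laser capture microdissection (LCM) isolated 5 segments around isolated lymphoid follicles (ILFs), which are small lymphoid clusters under the gut lining. There were 3 epithelial segments, namely the bottom of a neighboring villus (VB) and the bottom and top of the follicle-associated epithelium (FAEB and FAET), and 2 immune segments, the bottom and top of the follicle itself (ILFB and ILFT). Each segment had 5 libraries, of which repeats 1 and 2 came from mouse 1 and repeats 3 to 5 from mouse 2, and each library pooled at least 3 follicles or epithelia over 10 serial sections. The repeats of a mouse are not separate animals, so the p-values below measure the spread between dissected pools.

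Dietary triglyceride is split in the lumen, and the fatty acids and monoacylglycerol that enter the enterocyte are bound by cytosolic fatty acid binding proteins, joined to coenzyme A and rebuilt into triglyceride at the endoplasmic reticulum. The rebuilt fat leaves the cell in chylomicrons or waits in cytosolic lipid droplets. Cholesterol enters through a separate apical transporter. Along the villus this work is done by mature absorptive enterocytes, whereas follicle-associated epithelium lies over lymphoid tissue and is known for sampling antigens.

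Promoter sequences were available from RefSeq for 6 of the 10 genes (Fabp1, Fabp2, Npc1l1, Cd36, Acsl5 and Plin2). Those of the most abundant pair, Fabp1 and Fabp2, and of the cholesterol transporter Npc1l1 are shown because these genes carry most of the differences described below. Each runs 5′ to 3′ toward the gene on its own strand, stops before the transcription start of both RefSeq and GENCODE, and is on build GRCm38. Fabp1 is at chr6:71199629-71199826 on the plus strand, Fabp2 at chr3:122894822-122895071 on the plus strand and Npc1l1 at chr11:6230246-6230495 on the minus strand. Capitals mark matches, on either strand, to AGGTCA (an element bound by nuclear receptors), CAAAGTNCA (bound by HNF4) and GTTAAT (bound by HNF1).
Fabp1: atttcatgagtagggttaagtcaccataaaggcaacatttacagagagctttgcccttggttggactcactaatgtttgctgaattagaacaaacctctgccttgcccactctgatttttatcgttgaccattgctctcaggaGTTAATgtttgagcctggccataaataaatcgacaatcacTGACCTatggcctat
Fabp2: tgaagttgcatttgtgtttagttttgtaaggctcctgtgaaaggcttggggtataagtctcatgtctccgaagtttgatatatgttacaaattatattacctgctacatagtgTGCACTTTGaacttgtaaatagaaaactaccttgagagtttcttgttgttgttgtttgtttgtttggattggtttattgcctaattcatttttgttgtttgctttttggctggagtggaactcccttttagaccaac
Npc1l1: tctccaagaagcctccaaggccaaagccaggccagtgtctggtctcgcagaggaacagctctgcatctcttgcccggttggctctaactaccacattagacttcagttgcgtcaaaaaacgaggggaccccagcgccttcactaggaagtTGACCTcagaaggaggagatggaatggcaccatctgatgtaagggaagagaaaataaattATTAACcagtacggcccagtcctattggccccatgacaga
Over the 250 bases before the RefSeq start, AGGTCA was present in 14% of 32851 mouse promoters, CAAAGTNCA in 1.19% and GTTAAT in 6.43%, and the 3 motifs do not overlap in these promoters. Counted from the RefSeq start, Fabp1 held AGGTCA at bases -67 to -62, with a second copy at -9 to -4 that is not shown, and GTTAAT at -107 to -102. Fabp2 held CAAAGTNCA at -137 to -129 and neither of the others. Npc1l1 held AGGTCA at -100 to -95 and GTTAAT at -40 to -35. The letters were picked with these sequences in view, and a match describes the sequence and is not a bound site.

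The libraries held 21529 to 213736 UMIs. Marker genes for each compartment showed that 6 of the 25 libraries went against their label, in that markers of the other compartment gave more UMIs than their own. VB repeat 5 had 67.6 leukocyte marker UMIs per 10,000 total UMIs against 3.05 for pan-epithelial markers, and FAET repeat 1 had 40.5 against 15.6. ILFB repeat 5 had 78.0 epithelial against 5.34 leukocyte marker UMIs. ILFT repeats 1, 3 and 4 had 95.04, 87.3 and 62.2 epithelial marker UMIs, against 2.87, 30.4 and 5.37 for leukocyte markers. These libraries stay in the main values, and results are also given without them. That choice rests on the compartment markers alone and was made after the marker levels were seen.

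The 10 genes gave 5492 UMIs in all, of which 70.7% came from Fabp1 and Fabp2. Totals over the 25 libraries were 2430 UMIs for Fabp2, 1454 for Fabp1, 552 for Dgat1, 443 for Acsl5, 238 for Npc1l1 and 207 for Mogat2. The other 4 had under 100 UMIs each, with 64 for Dgat2, 61 for Plin2, 25 for Scarb1 and 18 for Cd36. Levels below are UMIs per 10,000 UMIs of protein-coding, non-mitochondrial genes, and the plot of each gene by segment shows every library.

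**Figure D1:**
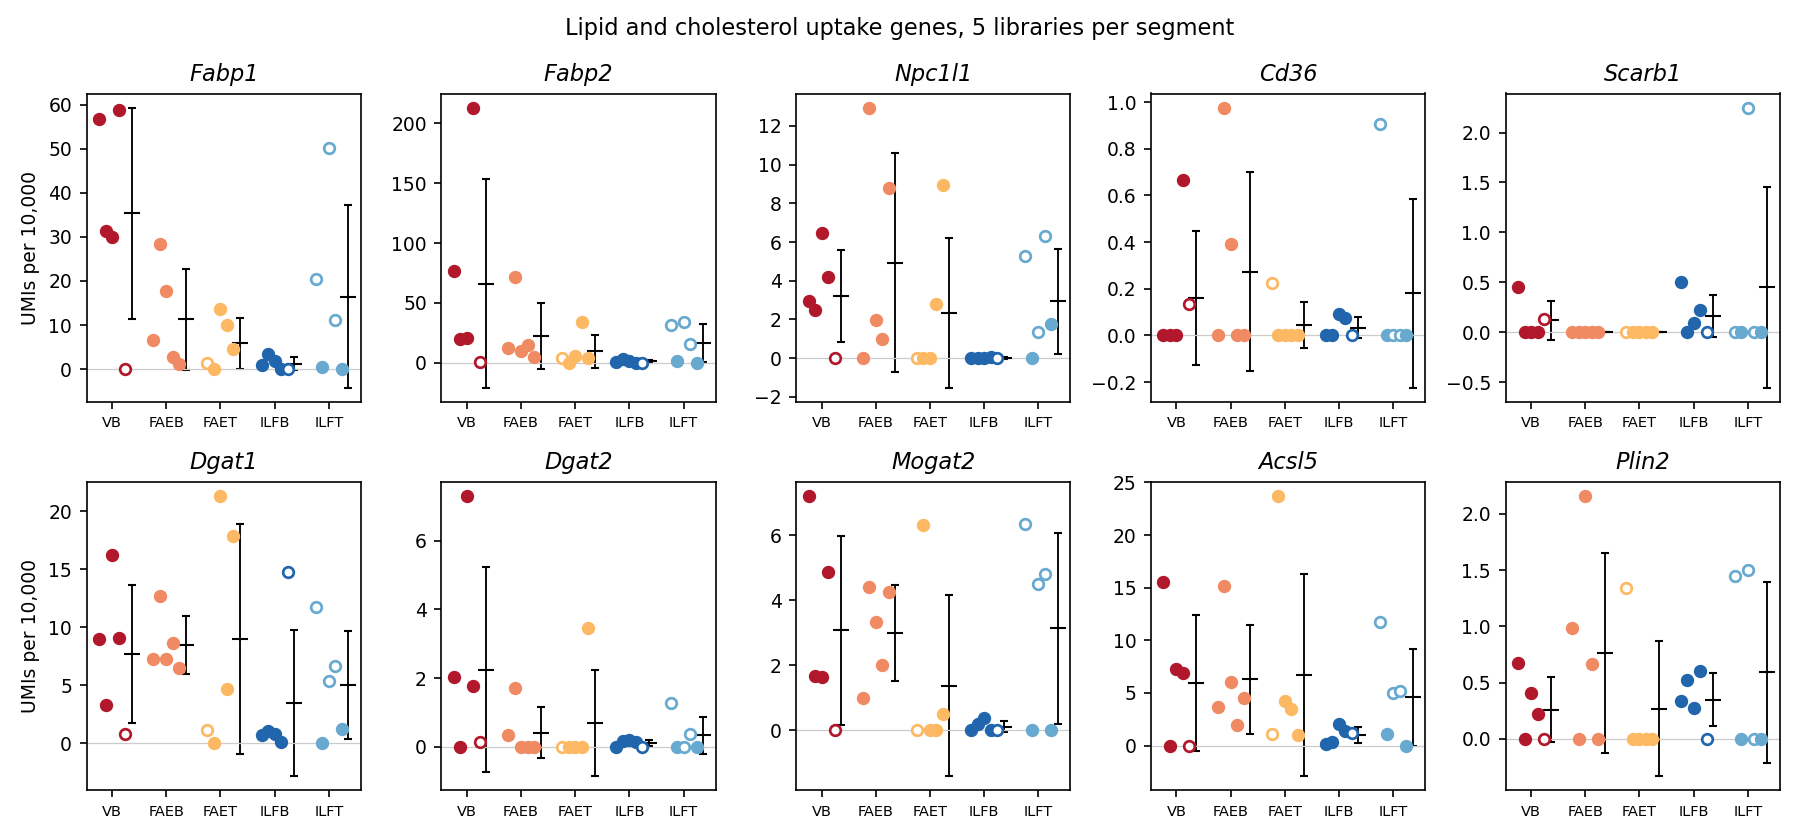
UMIs per 10,000 (linear axis, own scale per gene) for the 10 genes in the 5 segments, with a point per library in order of repeat 1 to 5 from left to right. Open points are the 6 libraries whose compartment markers go against their label, and the black bar is the mean ± SD of all 5 libraries. Fabp1 lies between 30.0 and 58.8 in 4 VB libraries and at 0 in the open one.

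Fabp1 encodes the liver-type fatty acid binding protein, which carries fatty acids in the cytosol and is abundant in enterocytes. In VB it was at 56.7, 31.4, 30.0, 58.8 and 0 UMIs per 10,000 in repeats 1 to 5, where a count of 0 in repeat 5 allows up to 0.3996. In FAEB the values were 6.60, 28.3, 17.7, 2.67 and 1.13, and in FAET 1.34, 0, 13.7, 10.02 and 4.46. The 4 VB libraries with epithelial markers were all above every FAEB and FAET library, while the FAEB and FAET ranges overlapped. The 0 in FAET repeat 2, the shallowest library, allows up to 4.74. In ILFB the values were 0.833, 3.51, 1.82, 0 and 0, and in ILFT 20.5, 0.548, 50.3, 11.1 and 0. The high ILFT values were those of repeats 1, 3 and 4, the libraries dominated by epithelial markers. The means were 35.4 ± 24.0 in VB, 11.3 ± 11.5 in FAEB, 5.90 ± 5.80 in FAET, 1.23 ± 1.48 in ILFB and 16.5 ± 20.7 in ILFT (SD over 5 libraries).

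Fabp2 encodes the intestinal-type fatty acid binding protein, which is made almost exclusively by enterocytes. In VB it was at 76.6, 19.8, 20.7, 213 and 0.133 UMIs per 10,000. In FAEB the values were 12.2, 71.3, 9.42, 14.3 and 4.25, and in FAET 4.03, 0, 5.12, 33.8 and 3.47. Repeat 4 was highest in VB and in FAET, repeat 2 was highest in FAEB, and the 3 epithelial ranges overlapped. In ILFB the values were 0.333, 2.98, 1.27, 0 and 0, and in ILFT 31.7, 1.64, 33.8, 15.5 and 0. The means were 66.1 ± 87.1 in VB, 22.3 ± 27.7 in FAEB, 9.29 ± 13.9 in FAET, 0.918 ± 1.27 in ILFB and 16.5 ± 15.99 in ILFT (SD over 5 libraries).

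Fabp1 and Fabp2 rose and fell together over the libraries. On the log2(UMIs per 10,000 total UMIs + 0.5) scale their Pearson correlation over the 25 libraries was 0.92, and Fabp2 was the closest of 1030 genes to Fabp1 and the reverse. Their balance was not fixed: Fabp2 gave more UMIs than Fabp1 in 12 libraries and fewer in 9, with 962 against 265 UMIs in VB repeat 4, 48 against 90 in FAEB repeat 3 and 225 against 335 in ILFT repeat 3. The remaining 4 libraries had no UMI of either gene.

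**Figure D2:**
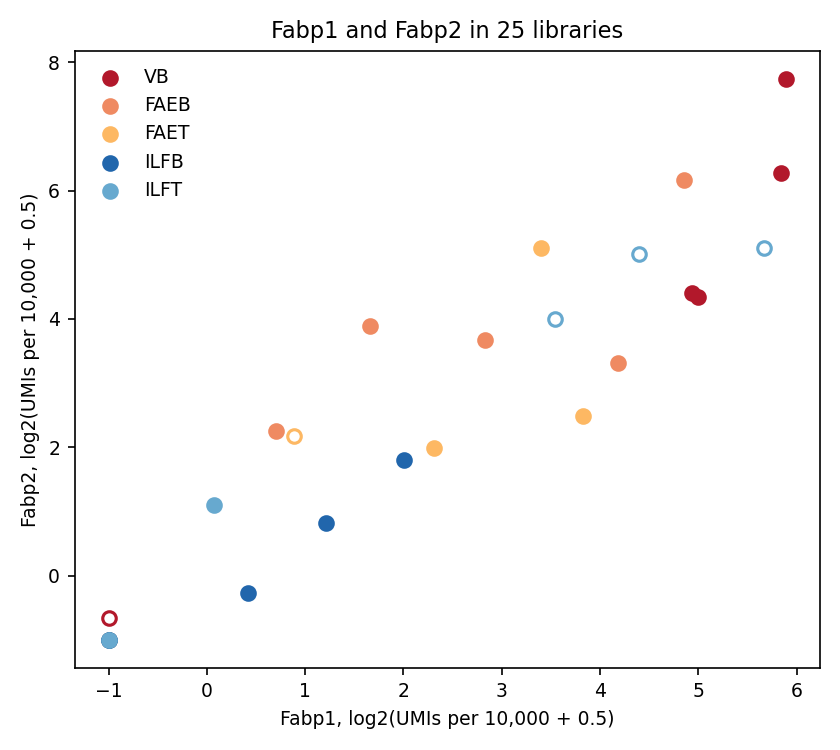
Fabp1 (x axis) against Fabp2 (y axis), both as log2(UMIs per 10,000 + 0.5), in the 25 libraries colored by segment. Open points are the 6 libraries against their label, and the 4 libraries with no UMI of either gene lie on top of each other at the lower left. The VB libraries other than repeat 5 hold the highest Fabp1 values apart from 1 ILFT library that carries epithelial markers.

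Npc1l1 encodes the apical transporter through which cholesterol and plant sterols enter the enterocyte. It was at 2.93, 2.48, 6.49, 4.21 and 0 UMIs per 10,000 in VB, at 0, 12.9, 1.963, 1.00 and 8.79 in FAEB, and at 0, 0, 0, 2.82 and 8.92 in FAET. The FAEB range therefore spanned those of VB and FAET. In ILFB 4 libraries had no UMI and repeat 4 had 1 UMI, whereas ILFT was at 5.25, 0, 1.35, 6.29 and 1.74. Means were 3.22 ± 2.38, 4.94 ± 5.65, 2.35 ± 3.87, 0.015 ± 0.034 and 2.93 ± 2.70 in VB, FAEB, FAET, ILFB and ILFT (SD, n = 5 each).

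The fatty acid translocase Cd36 and the scavenger receptor Scarb1, which binds high-density lipoprotein and takes up cholesterol, were near the detection limit. Cd36 gave 4 UMIs in VB, 6 in FAEB, 1 in FAET, 2 in ILFB and 5 in ILFT, the last all in repeat 1. Scarb1 gave 3 UMIs in VB, none in any FAEB or FAET library, 7 in ILFB and 15 in ILFT, the last all in repeat 3. Both genes are also expressed by macrophages and endothelium, and the macrophage markers were at 20.4 UMIs per 10,000 total UMIs in ILFT repeat 3, within the 0.891 to 38.6 of the ILFB libraries, while its endothelial markers, at 7.58, were the highest of the 25. This library, against its label, also had pan-epithelial markers at 87.3, and its goblet markers, at 70.9, were the highest of the 25. The part of macrophages, endothelium or epithelium in the Scarb1 UMIs was not tested. Pooled over libraries, Scarb1 was at 3 UMIs in epithelium and 22 in ILF, a ratio of 0.137 of the total-UMI shares with an exact 95% interval of 0.0263 to 0.456 that covers counting error only. Without ILFT repeat 3 it was 3 against 7 UMIs, and the ratio was 0.392 with an interval of 0.0654 to 1.72.

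The enzymes that rebuild triglyceride were present in all 3 epithelial segments. Acsl5, which joins long-chain fatty acids to coenzyme A, was at 15.5, 0, 7.30, 6.88 and 0 UMIs per 10,000 in VB, at 3.63, 15.1, 6.09, 2.00 and 4.53 in FAEB, and at 1.12, 23.7, 4.27, 3.45 and 0.991 in FAET. The epithelial ranges overlapped throughout, and the top FAET value rests on 15 UMIs in the shallowest library. In ILFB Acsl5 lay between 0.167 and 2.00, below 4 of the 5 FAEB libraries and equal to the lowest at this rounding. ILFT ran from 0 to 11.8.

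Mogat2, which adds a fatty acid to monoacylglycerol in the main intestinal route to triglyceride, was at 7.21, 1.65, 1.62, 4.88 and 0 UMIs per 10,000 in VB and at 0.990, 4.40, 3.34, 2.00 and 4.25 in FAEB. In FAET it was at 0, 6.32, 0, 0 and 0.496, so that 3 of the 5 libraries had no UMI and the highest rests on 4 UMIs. All 5 FAEB libraries were above 4 of the 5 FAET libraries as counted. However, the 0 of FAET repeat 3, a shallow library, allows more than the 0.990 and 2.00 of FAEB repeats 1 and 4. The ILFB maximum was 0.364, and in ILFT the 3 libraries with epithelial markers were at 6.34, 4.50 and 4.81 and the other pair at 0.

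Dgat1 and Dgat2 encode unrelated enzymes for the last step of triglyceride synthesis. Dgat1 was present in 14 of the 15 epithelial libraries, at 9.01, 3.31, 16.2, 9.09 and 0.799 UMIs per 10,000 in VB, 7.26, 12.7, 7.26, 8.68 and 6.52 in FAEB and 1.12, 0, 21.3, 4.70 and 17.8 in FAET. Its mean was 7.69 ± 5.98 in VB, 8.48 ± 2.48 in FAEB and 8.998 ± 9.90 in FAET (SD, n = 5 each). In ILFB it lay between 0.075 and 1.05 in repeats 1 to 4 and at 14.8 in repeat 5, the library dominated by epithelial markers. Dgat2 gave 36 UMIs in VB, 8 in FAEB, 7 in FAET, 5 in ILFB and 8 in ILFT, with 0 UMIs in 4 of the 5 FAET libraries. Dgat2 and Mogat2 are neighbors on chromosome 7, on the same strand, at 99153658 to 99182719 and 99219084 to 99238619.

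Plin2 encodes a coat protein of cytosolic lipid droplets. It gave 5 UMIs in VB, 16 in FAEB, 6 in FAET, 16 in ILFB and 18 in ILFT. All 6 FAET UMIs were in repeat 1, a library against its label, and 11 of the FAEB UMIs were in repeat 3. Its mean of 0.431 ± 0.642 UMIs per 10,000 in epithelium (SD, n = 15) lay within the spread of the 0.468 ± 0.576 in ILF (SD, n = 10).

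The first comparison set the 15 epithelial libraries against the 10 ILF libraries, to ask how far these genes separate the 2 compartments. Fabp2 and Npc1l1 were higher in epithelium. The log2 fold change was 2.65 ± 0.65 (SE) for Fabp2 (adjusted p = 0.011) and 3.01 ± 0.85 for Npc1l1 (adjusted p = 0.0277), by edgeR's quasi-likelihood test with mouse as a term and Benjamini-Hochberg adjustment over all 9956 genes. That made 2 of 10 genes called higher and none called lower, where 0.472% of all tested genes were called higher and 2.56% lower. The estimate was above 0 for 8 of the 10, against 34.2% of all genes, and the median was 1.10 against -0.48 over all genes. At an unadjusted p under 0.05 were 4 of the 10, where 19% of genes were. Fabp1 had an estimate of 1.38 ± 0.65 (adjusted p = 0.223), Dgat2 of 1.83 ± 0.95 (0.270), Mogat2 of 1.15 ± 0.80 (0.445), Dgat1 of 1.05 ± 0.69 (0.412), Acsl5 of 0.99 ± 0.71 (0.466) and Cd36 of 0.51 ± 1.02 (0.869). Plin2 was at -0.48 ± 0.89 (adjusted p = 0.849) and Scarb1 at -2.71 ± 0.94 (adjusted p = 0.076). In bulk samples such as these, fewer cells of a type and less RNA per cell cannot be told apart.

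Within each mouse the means kept this order for the called genes. Fabp2 was at 30.7 UMIs per 10,000 in epithelium and 9.17 in ILF of mouse 1, and at 33.8 and 8.43 in mouse 2. Npc1l1 was at 3.06 and 1.31 in mouse 1 and at 3.80 and 1.58 in mouse 2. With the repeat as a block in place of the mouse, neither call held (adjusted p = 0.0549 for Fabp2 and 0.0694 for Npc1l1), and 80 rather than 302 genes were called in all. The Fabp2 call was also lost without VB repeat 4 (log2 fold change 1.95, edgeR adjusted p = 0.0986), FAEB repeat 2 (2.03, 0.0676) or FAET repeat 4 (1.91, 0.0889), and without all of repeat 4 the estimate fell to 1.04 (0.596). The Npc1l1 call was lost on leaving out any of VB repeats 1 and 4, FAEB repeat 2, FAET repeats 4 and 5, ILFB repeats 1 to 3 and ILFT repeats 2 and 5, with edgeR adjusted p from 0.0512 to 0.121 and estimates from 2.32 to 2.87.

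Of the 10 ILF libraries, 4 are dominated by epithelial markers, and ILFT repeats 1, 3 and 4 held 1330 of the 1348 UMIs that the 10 genes gave in ILFT. Leaving out the 6 libraries against their label selects on epithelial markers, which most of these genes follow, so it enlarges this contrast by construction. Without them, 6 of the 8 genes that still passed the minimum were called higher in epithelium, where 4.31% of 8738 genes were, and the count was also 6 with the repeat as a block. These values describe the remaining libraries and are not a separate test. The log2 fold changes were then 5.29 ± 0.92 for Fabp2 (edgeR adjusted p = 3.37e-06), 4.72 ± 0.99 for Fabp1 (0.000177), 4.56 ± 1.31 for Mogat2 (0.00794), 4.06 ± 1.07 for Npc1l1 (0.00346), 3.50 ± 0.94 for Dgat1 (0.00431) and 3.01 ± 0.95 for Acsl5 (0.0169). Dgat2 had an estimate of 3.53 ± 1.39 (adjusted p = 0.0588), Plin2 of 0.58 (adjusted p = 1), and Cd36 and Scarb1 had too few UMIs to test. In the ILF libraries that remained, Fabp1 had a median of 0.690 UMIs per 10,000 (n = 6) against 13.7 in epithelium (n = 13).

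**Figure D3:**
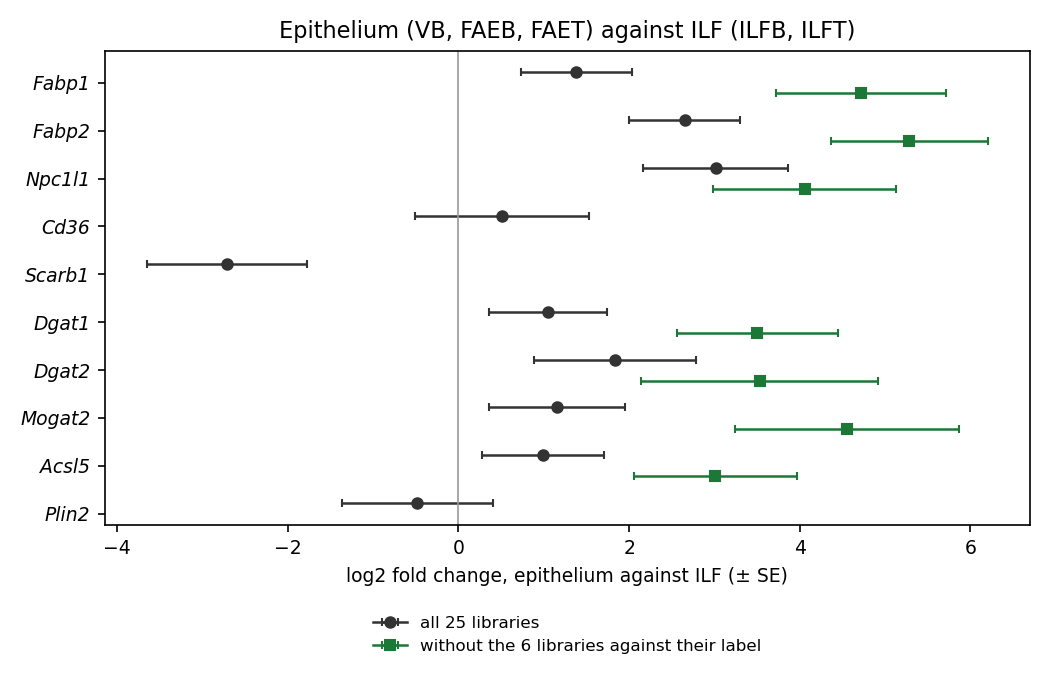
Log2 fold change of epithelium over ILF (x axis, edgeR estimate ± SE) for the 10 genes, with all 25 libraries (circles) and without the 6 libraries against their label (squares). Fabp1 moves from 1.38 to 4.72 and Fabp2 from 2.65 to 5.29, no square is drawn for Cd36 and Scarb1, which were not tested, and none for Plin2, whose estimate had no standard error.

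Over all 5 segments at once, Fabp2 (edgeR adjusted p = 0.000126), Fabp1 (0.0203) and Npc1l1 (0.0329) differed, which is 3 of 10 genes where 1.79% of all tested genes did. Mogat2 was the next at an adjusted p of 0.0854, and the other 6 lay between 0.200 and 0.895. Only Fabp2 was called with the repeat as a block. Its call was lost without VB repeat 4 (adjusted p = 0.0867). Fabp1 was not called without VB repeat 1 or 4 or any of ILFB repeats 1 to 4 (edgeR adjusted p from 0.0505 to 0.113), and Npc1l1 lost its call on leaving out a single library in 12 of 25 cases (up to 0.138). Without the 6 libraries, 5 of the 8 tested were called against 18.2% of all genes, namely Fabp1, Fabp2, Npc1l1, Dgat1 and Mogat2.

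The comparison of the FAE top with the villus bottom addresses whether absorption genes differ between follicle-associated epithelium and its neighboring villus. Fabp1 and Fabp2 are among the absorption genes that the study itself chose on these libraries, so their direction here is no independent evidence. Apart from these libraries, the paper also reports lower Fabp1 in FAET than in FAEB and VB by single-molecule imaging of transcripts in fixed jejunum. Fabp1 had a log2 fold change of -2.98 ± 1.05 (SE) in FAET over VB and Fabp2 of -3.13 ± 0.97, both with an edgeR adjusted p of 0.345. The Fabp2 value rested on repeat 4, which was highest in both segments, since it was -0.86 (adjusted p = 0.863) without VB repeat 4 and -5.11 (0.0695) without FAET repeat 4. Leaving out any single library gave -3.48 to -2.23 for Fabp1. In 4 of 5 repeats the FAET library was below the VB library of the same repeat for Fabp1 and Fabp2, and the exception each time was repeat 5, where the VB library was against its label. In the 3 repeats with neither library against its label, FAET was lower in 3 of 3 for Fabp1 and Fabp2. For Npc1l1 it was lower in repeats 3 and 4, while the 0 of FAET repeat 2 allows more than the 2.48 of VB repeat 2. Within mouse 1 Fabp1 had a mean of 44.1 UMIs per 10,000 in VB and 0.672 in FAET (n = 2 each), where the FAET mean comes from the library against its label and the shallowest library, with no Fabp1 UMI. Within mouse 2 the means were 29.6 and 9.38 (n = 3 each).

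No member was called in this comparison, where 0.01% of tested genes were called by edgeR, a single gene. At an unadjusted p under 0.05, 3 members (Fabp2 at 0.00122, Fabp1 at 0.00472 and Mogat2 at 0.0322) stood beside 12.5% of all genes. All 10 estimates were below 0, where 35.4% of genes were above it, and their median was -1.94, against -0.56 over all tested genes. With RLE size factors, the study's denominators, DESeq2 or limma-voom 1 of the 10 was above 0. Mogat2 was at -2.80 ± 1.31 (adjusted p = 0.369), Dgat2 at -1.87 ± 1.43 (0.599), Acsl5 at -0.98 ± 1.08 (0.776), Npc1l1 at -0.76 ± 1.14 (0.869) and Dgat1 at -0.46 ± 1.06 (0.944). The 95% interval of the fold change ran from -5.04 to -0.91 for Fabp1 before adjustment, and from -2.54 to 1.62 for Dgat1.

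The summed pan-epithelial markers had a lower median in FAET (39.9 UMIs per 10,000 total UMIs) than in VB (67.8) and FAEB (71.7), with overlapping ranges. These markers were at 15.6 to 92.0 UMIs per 10,000 total UMIs in FAET, at 43.2 to 101 in FAEB and at 63.5 to 76.4 in VB repeats 1 to 4, and 14 of the 18 marker genes had an estimate below 0 in FAET over VB, none called. Set against pan-epithelial marker UMIs instead of all UMIs, the log2 fold change in FAET over VB was -1.79 ± 1.80 for Fabp1 (edgeR adjusted p = 0.714), -2.46 ± 1.73 for Fabp2 (0.629) and -1.60 ± 2.06 for Mogat2 (0.770), while Dgat1 was at 0.12 and Acsl5 at 0.28. With this scaling 3 members were above 0 and the order of the medians turned, to -1.11 for the members against -1.83 for all genes. The scaling sets the library size of VB repeat 5, a library against its label, from 39 pan-epithelial UMIs among 127874 in all. The part of that library in these estimates was not tested. Without the 6 libraries the same scaling gave medians of -1.37 for the members and -0.34 for all genes. Per 100 pan-epithelial marker UMIs, Fabp1 had a mean of 21.8 ± 15.5 in VB, 7.03 ± 7.38 in FAEB and 6.01 ± 6.57 in FAET, and Fabp2 of 42.8 ± 58.0, 14.6 ± 18.7 and 8.03 ± 7.38 (SD, n = 5 each). Leaving out the 6 libraries moved the FAET over VB estimate of Fabp1 to -2.87 ± 0.99 (edgeR adjusted p = 0.284) and of Fabp2 to -3.11 ± 0.89 (0.237). No member was called there, where 0.0229% of 8738 genes were.

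**Figure D4:**
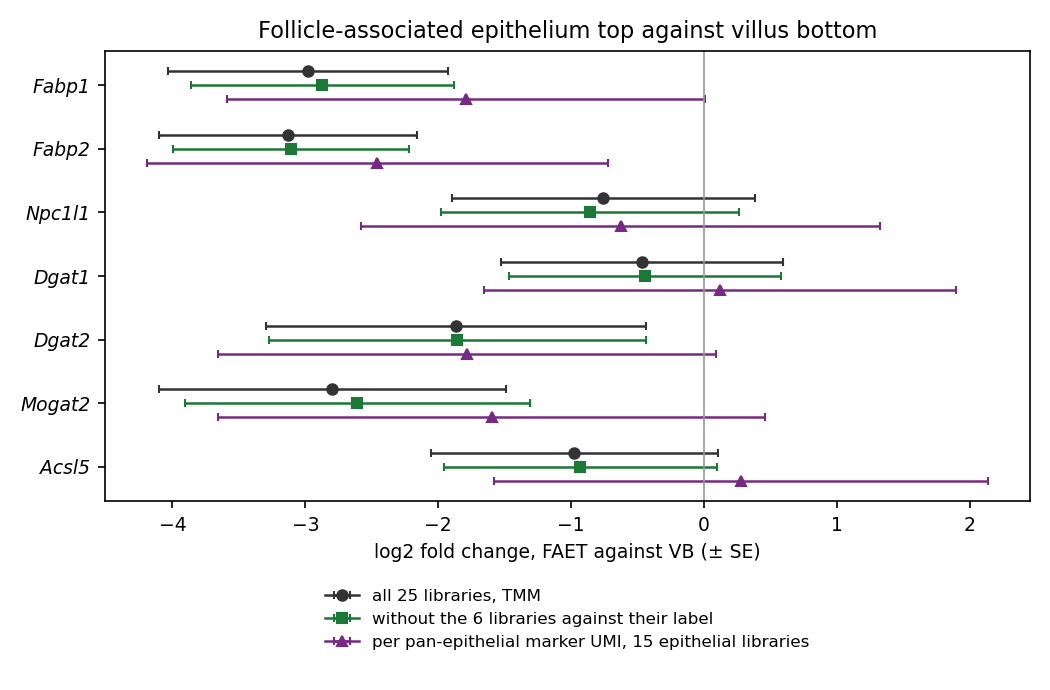
Log2 fold change of FAET over VB (x axis, edgeR estimate ± SE) for the 7 genes with more than 61 UMIs, from all 25 libraries (circles), without the 6 libraries against their label (squares) and per pan-epithelial marker UMI in the 15 epithelial libraries (triangles). Fabp1, Fabp2 and Mogat2 lie lowest among the circles at -2.98, -3.13 and -2.80, and the triangles of Dgat1 and Acsl5 lie above 0.

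Between the ends of the follicle-associated epithelium the estimates of Fabp1 and Fabp2 were smaller in size than in FAET over VB. Those of Mogat2 and Acsl5 were similar in both comparisons, and those of Npc1l1 and Dgat1 were larger in size by less than their standard errors. Both comparisons share the FAET libraries, and the differences between them were not tested. In FAET over FAEB, where the Fabp2 estimate ran from -3.11 without FAET repeat 4 to -0.075 without FAEB repeat 2, Fabp1 was at -1.38 ± 1.05 (edgeR adjusted p = 0.567), Fabp2 at -1.25 ± 1.01 (0.602), Npc1l1 at -1.58 ± 1.22 (0.579), Mogat2 at -2.67 ± 1.31 (0.338), Acsl5 at -0.93 ± 1.08 (0.763) and Dgat1 at -0.72 ± 1.11 (0.849). No member was called and 0% of all tested genes were, while 14.3% of genes were under an unadjusted p of 0.05 and 1 member, Mogat2 at 0.0417, was among them. Mogat2 was lower in FAET in 4 of 5 repeats. Estimates above 0 were found for 2 of the 10 members, Dgat2 and Scarb1 (the latter with no UMI in either segment), and for 37.9% of genes. Without the 6 libraries no member was called, where 0.0229% of genes were. DESeq2 called 4 genes in this comparison and none of the members.

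In FAEB over VB, Fabp1 was at -1.60 ± 0.98 (edgeR adjusted p = 0.681) and Fabp2 at -1.88 ± 0.98 (0.567). Without VB repeat 4 the Fabp2 estimate was -0.088 (adjusted p = 1) and that of Fabp1 -0.99 (0.936), and the Fabp2 range over single libraries was -3.13 to -0.088. Npc1l1 was at 0.82 ± 1.12 and Dgat1 at 0.26 ± 1.04 (edgeR adjusted p = 1 for both). Fabp1 was lower in FAEB in 4 of 5 repeats. No member was called, where 0.0201% of genes were, and none was under an unadjusted p of 0.05, where 8.96% of genes were. The estimate was above 0 for 4 of the 10 members and for 48.6% of genes. Without the 6 libraries no member was called either, where 0.0229% of genes were called lower and 0.0114% higher.

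The study's own kind of test, a Kruskal-Wallis statistic of the UMI fractions over VB, FAEB and FAET, was run as an exact permutation of segments within mice (151200 arrangements). It called 0 of 10 members and 0% of 8612 protein-coding genes after adjustment. The smallest exact permutation p of any gene was 0.000238. Over 8612 genes a p of that size is called only if many genes share it. It is the smallest p seen and not the lowest that the test could give, so the number of arrangements alone does not fix the lack of calls. With 5 libraries per segment the adjusted p says little about a single member. None of the members was under an unadjusted p of 0.05, where 4.66% of genes were. Dgat2 had an exact permutation p of 0.210, Fabp2 of 0.212 and Fabp1 of 0.166, the lowest of the 10, and Dgat1 of 0.966, the highest. For Fabp1 the exact permutation p was 0.00667 without repeat 5, which holds the VB library against its label, and 0.0103 without all such libraries (adjusted p = 1 and 0.603). Of all genes, 3.50% and 6.17% were under an unadjusted p of 0.05 in these settings. Without repeat 1, 2, 3 or 4 the exact permutation p of Fabp1 was 0.406, 0.477, 0.377 or 0.284. Leaving out VB repeat 5, which had no Fabp1 UMI, selects on epithelial markers that Fabp1 follows. It therefore enlarges the difference from VB by construction. There were fewer arrangements without repeat 5 (8100) and without the 6 libraries (16800). The smallest exact permutation p of any gene was 0.000741 and 5.95e-05 there, and a p of either size is also called only if several genes share it.

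Inside the follicle, all 10 estimates were lower in ILFB than in ILFT, with a median of -1.44 where all genes had 0.66 and 66.8% of them were above 0. Npc1l1 was at -5.70 ± 1.43 (edgeR adjusted p = 0.0687), Fabp2 at -3.99 ± 1.02 (0.0788), Mogat2 at -4.10 ± 1.31 (0.208) and Fabp1 at -3.55 ± 1.08 (0.208). No member was called, where 0.0904% of genes were (0.0502% higher and 0.0402% lower in ILFB), and 4 members were under an unadjusted p of 0.05, where 14.3% of genes were. The high ILFT values were again those of repeats 1, 3 and 4, the libraries that carry epithelial markers. Without the 6 libraries, which left 4 ILFB and 2 ILFT libraries and 0.0229% of genes called higher, Fabp1 turned to 3.50 ± 1.56 (adjusted p = 0.341), Fabp2 to 1.67 ± 1.24 (0.426) and Mogat2 to 2.87 ± 2.18 (0.439), while Npc1l1 remained below 0 at -3.43 ± 1.54 (0.341). In those libraries Fabp1 gave 45 UMIs in ILFB and 1 in ILFT, and Npc1l1 gave 1 and 7. The depths were unlike, with 104412 to 213736 UMIs per ILFB library and 29987 and 83798 in the ILFT libraries. As means, Fabp1 was at 1.54 UMIs per 10,000 in ILFB (n = 4) and 0.274 in ILFT (n = 2), and Npc1l1 at 0.0188 and 0.870.

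Other genes of fat and sterol handling were read from lists assembled with earlier results of these data known. Among 15 tested genes of chylomicron assembly, which packs triglyceride with apolipoproteins, 4 were higher in epithelium than in ILF and none lower, with a list median of 1.18. Of all tested genes, 0.472% were called higher and 2.56% lower, with a median of -0.48. They were Apoa4 (log2 fold change 2.46 ± 0.56, edgeR adjusted p = 0.00639), Apoc3 (3.03 ± 0.70, 0.00639), Apoa1 (1.97 ± 0.52, 0.019) and Apoc2 (2.43 ± 0.71, 0.0346), all apolipoproteins. Of 4 disaccharidases, enzymes of the brush border that split sugars, Lct (2.69 ± 0.78, 0.0322) and Sis (2.20 ± 0.69, 0.0482) were higher. None of the tested genes was called among 10 of fatty acid uptake and activation, 11 of glycerolipid synthesis, 20 of cholesterol handling, 7 of lipid droplets and 17 of fatty acid oxidation and PPAR targets, apart from the members themselves. Lists of 7 to 20 genes are too short to tell none called from the 3.03% called in either direction among all genes.

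In FAET over VB the chylomicron list had a median of -0.18, with 7 of 15 genes above 0 and none called, beside the -1.94 of the 10 members and -0.56 of all genes. The disaccharidase list had a median of -0.31 and the fatty acid oxidation list of 0.36, again with none called, where 0.01% of all genes were. The difference between lists was not tested.

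Without the 6 libraries, with the limit given above, 17.3% of all genes were called between epithelium and ILF. By list, called genes numbered 2 of 10 tested for fatty acid uptake and activation, 3 of 10 for glycerolipid synthesis, 6 of 19 for cholesterol handling, 3 of 7 for lipid droplets, 7 of 14 for chylomicron assembly, 1 of 17 for fatty acid oxidation and 4 of 4 disaccharidases. The cholesterol handling count includes Vil1 (3.41 ± 0.92, edgeR adjusted p = 0.00459). Vil1 is also a pan-epithelial marker used to pick the 6 libraries, so its call follows from that choice. Higher in epithelium were Slc27a4, a fatty acid transport protein (5.11 ± 1.22, edgeR adjusted p = 0.00112), the sterol exporter subunits Abcg5 (5.80 ± 1.43, 0.00174) and Abcg8 (3.79 ± 1.22, 0.0187), Cideb, which acts in lipoprotein lipidation (5.38 ± 1.32, 0.00159), and Apob, the structural protein of chylomicrons (6.73 ± 1.21, 7.22e-06). Also higher were Cds1 (log2 fold change 4.55, edgeR adjusted p = 0.0088) and Lpcat3 (4.12, 0.0161) of glycerolipid synthesis. Plin3 of lipid droplets (3.12, 0.0236) and Dbi of fatty acid uptake and activation (2.31, 0.0271) were higher too. The glycerolipid list thus had 2 genes called higher and 1 called lower, Agpat4 (-3.23 ± 1.19, 0.0433). Lower in epithelium were also Soat1, a cholesterol esterifying enzyme (-4.43 ± 1.17, 0.00356), Bscl2 (-2.97 ± 1.05, 0.0323) and Acadl (-2.95 ± 1.06, 0.0366).

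The genes whose log2 levels were most like each abundant member over the 25 libraries, among 1030 genes with a mean of at least 10 UMIs, are given as a description, since all points share library depth and the mix of epithelial and immune tissue. After Fabp2, Fabp1 was closest to Spink1 (Pearson r = 0.92) and Rbp2 (0.89), the latter an intestinal retinol binding protein. After Fabp1, Fabp2 was closest to Spink1 (0.91) and Fcgbp (0.87). Npc1l1 was closest to Myo15b (0.83), the lactase gene Lct (0.80) and Atp8b1 (0.78), and Dgat1 to Cldn15 (0.87), Ms4a10 (0.86) and Spint2 (0.85). Mogat2 was closest to Eps8l3 (0.80), Ces2e (0.80) and Acsl5 (0.78), and Acsl5 to Ace (0.81), Dnase1 (0.78) and P4hb (0.77). The levels of Dgat1, Fabp2 and Fabp1 also followed the summed pan-epithelial markers (r = 0.75, 0.68 and 0.65), whereas those of Cd36, Plin2 and Scarb1 did so weakly (0.19, 0.07 and -0.06).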

How the data were processed

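Laser-captured segments of mouse jejunum were sequenced as 25 mcSCRB-seq libraries per the study's methods (a protocol field of the labels names SMART-seq v4 instead). The authors demultiplexed with bcl2fastq 2.15.0.4 and mapped and counted with zUMIs and STAR on GRCm38 with Ensembl 84, and deposited whole-number UMI counts per gene, which are not normalized. All counts below were used as deposited. Each library held 21529 to 213736 UMIs, and intervals and limits of a 0 (3 UMIs over the denominator used for levels) cover counting error only. The closest pair of libraries differed by a chi-square of 5.87 per degree of freedom, so none was counted as a duplicate. Strand was not given in the sources used here.

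Levels are UMIs per 10,000 UMIs of 16190 protein-coding, non-mitochondrial genes (biotypes from GENCODE M21, with 119 IDs unmatched), leaving out 2 genes that reached 5% of a library. Tests used edgeR 4.0.16 (R 4.3.3) with TMM factors, segment and mouse as terms, 25 libraries, a minimum of 3 UMIs per gene in any 3 libraries, and Benjamini-Hochberg adjustment at 0.05. A Kruskal-Wallis statistic was permuted exactly within mice (Python 3.11.15, scipy 1.17.1). Both scripts were tested on simulated data. Alternatives were RLE size factors, the study's denominators, no filter, DESeq2 1.42.0, limma-voom 3.58.1, a replicate block, only the segments compared, library sizes from pan-epithelial markers, and leaving out libraries.

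Repeats share animal and sections by the study's design. Deviations of libraries with the same repeat correlated at 0.0272 on average (50 pairs), against -0.00913 for other repeats of the same mouse (80 pairs). The members and gene lists were chosen with earlier results of these data known. Named were all members, up to 4 called genes per list and comparison, and the 3 genes most alike to each member with at least 100 UMIs.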

Additional observations from a re-analysis of the deposited data

Results flagged for a closer look

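In 14 of 50 groups (10 genes in 5 segments), a single library lay far from the other 4, by the ratio of its gap to the whole range (Dixon's test, which chance passes in about 1 of 20 groups of normally spread values). Levels are UMIs per 10,000, with the nearest other library in brackets. Of the abundant genes, Fabp2 was at 71.3 in FAEB repeat 2 (14.3) and at 33.8 in FAET repeat 4 (5.12), and Dgat1 was at 14.8 in ILFB repeat 5 (1.05), a library against its label. In the shallowest library, FAET repeat 2, Acsl5 was at 23.7 from 15 UMIs (4.27) and Mogat2 at 6.32 from 4 UMIs (0.496). Dgat2 was at 7.30 in VB repeat 3 (2.03), at 1.71 in FAEB repeat 2 (0.330) and at 3.47 in FAET repeat 5 (0), the last from 7 UMIs. Cd36 was at 0.665 in VB repeat 4 (0.133), at 0.224 in FAET repeat 1 (0) and at 0.906 in ILFT repeat 1 (0), from 3, 1 and 5 UMIs. Scarb1 was at 2.25 in ILFT repeat 3 (0), Plin2 at 1.34 in FAET repeat 1 (0) and Npc1l1 at 0.0752 in ILFB repeat 4 (0), the last a single UMI. In 6 of the 14 groups the other libraries had no UMI, so that any UMI passes by construction and the chance rate does not apply.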

How the results depend on the processing

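For epithelium against ILF, genes and members called numbered 142 and 1 with no filter, 0 and 0 by DESeq2 (no adjusted p for Npc1l1), 33 and 0 by limma-voom, 80 and 0 with a replicate block, 1516 and 6 without the 6 libraries against their label, and 808 and 6 without them and with the block. Leaving out a library or repeat gave 0 to 719 genes and 0 to 2 members. Plin2 ranged from -1.79 to 0.014 there and was 0.58 without the 6. The study's denominators moved the median of all genes from -0.48 to -0.35.

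For FAET against VB, genes called were 3 with the study's denominators, 2 by DESeq2, 0 by limma-voom, with the replicate block and with pan-epithelial scaling, 2 without the 6 and 13 without the 6 with that scaling, and 0 to 3 on leaving out libraries. Acsl5 turned to 0.56 by limma-voom and, with pan-epithelial scaling, to 0.28 (0.17 without the 6), and Dgat1 to 0.12 (0.56). Leaving out libraries gave -1.92 to 0.079 for Acsl5 and -1.12 to 0.0016 for Dgat1. For FAET against FAEB, genes were 2 with RLE, with the study's denominators and without the 6, 4 by DESeq2, 18 without the 6 with pan-epithelial scaling, and 0 to 2 on leaving out libraries. With that scaling Dgat1 was 0.26 (0.55 without the 6) and Acsl5 0.44 (0.59). Leaving out libraries gave -3.11 to 0.26 for Fabp2 and -1.30 to 0.11 for Dgat1. For FAEB against VB, genes were 4 with RLE, 5 with the study's denominators, 6 with only the segments compared, 0 by limma-voom, with the replicate block and with pan-epithelial scaling, 1 without the 6 with the block, 4 without the 6 with pan-epithelial scaling, and 0 to 5 on leaving out libraries. Dgat1 was -0.14 with pan-epithelial scaling, and -0.018 without the 6 with the block, where Npc1l1 was -0.78. Leaving out libraries gave -0.95 to 1.45 for Npc1l1 and -0.44 to 1.08 for Dgat1.

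For ILFB against ILFT, members called were 1 with RLE, 2 with the study's denominators and 1 with only the segments compared. Genes were 3 with no filter, 0 by DESeq2 and with the replicate block, 3 without the 6 and 0 without the 6 with the block. Without the 6, Fabp1 was 3.50, Fabp2 1.67 and Mogat2 2.87, and with the block 2.85, 1.60 and 3.17. Leaving out libraries gave 1 to 12 genes and 0 to 2 members. Over all 5 segments, genes and members were 279 genes with the study's denominators, 1 and 0 by DESeq2, 4 and 0 by limma-voom, 48 and 1 with the replicate block, 1593 and 5 without the 6, and 863 and 5 with the block. Leaving out libraries gave 13 to 667 genes and 0 to 4 members. The causes of these shifts were not tested. Depth limits Cd36, Scarb1, Dgat2 and Plin2, each under 100 UMIs.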
